A study of Mus musculus with 12 samples.

Results

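The 10 genes described here code for transporters that carry amino acids across the cell surface: Slc7a5, Slc3a2, Slc1a5, Slc1a4, Slc7a1, Slc7a6, Slc38a1, Slc38a2, Slc43a1 and Slc7a3. They were taken by symbol from the 24982 gene symbols of the series, and all 10 were found. They were measured in 12 RNA-seq libraries (polyadenylated RNA) made from B lymphocytes of the spleen, taken from mice at 6 weeks of age. The WT group was C57BL/J6 by the series' design text, the Eμ-Myc group carried the Eμ-Myc transgene, and the Eμ-Myc; PRPS2 KO group (the knockout group) carried the transgene and lacked PRPS2. Each group had 4 biological replicates by its labels, called libraries 1 to 4, and the labels do not say whether a library came from 1 mouse or from a pool. The Eμ enhancer is an immunoglobulin heavy-chain element that drives Myc in B-lineage cells, so both transgenic groups share it and the knockout group has no counterpart without the transgene.

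Amino acids do not diffuse through the plasma membrane, and each transporter family moves its own range of them. Slc7a5 and Slc7a6 are light chains that reach the surface as pairs with the heavy chain Slc3a2 (CD98), and exchange one amino acid for another. Slc1a5, Slc1a4 and the Slc38 transporters carry small neutral amino acids, glutamine among them for several, and depend on sodium. Lymphocytes raise transport of this kind when they are activated to grow, since leucine and glutamine feed protein synthesis, nucleotide synthesis and the signal to the growth kinase mTORC1.

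The values are mean coverages per gene. They are read here as coverage per base, from the name given to the deposited values and from their decimals, so levels of different genes are compared per length. Each library was divided by 1 scaling factor, and all levels below are scaled coverage. The summed coverage of a library ran from 1277305.5 to 1885768.9, with 14900 to 16231 genes above 0. The read depth is unknown. Prps2, the gene removed, averaged 125 ± 19.8 for WT, 246 ± 36.5 for Eμ-Myc and 17.1 ± 0.857 for the knockout (SD, n = 4), and its 4 knockout libraries were below all others. All 12 B-cell markers were above 1 in every library. Their summed level was 9070, 17330, 14293 and 8813 in WT libraries 1 to 4. It was 11032 to 13250 in Eμ-Myc and 10071 to 10919 in the knockout, so it varied most in WT. Markers of other cells varied between libraries. The summed level of 15 T-cell markers was 906 to 5224 in WT, with library 4 highest, 201 to 283 in Eμ-Myc, and 1101, 1265, 82.8 and 80.4 in knockout libraries 1 to 4. For 9 NK-cell markers it was 429 to 1760 in WT, 111 to 297 in Eμ-Myc, and 686, 529, 27.5 and 25.1 in the knockout. For 15 myeloid markers it was 9616 to 34475 in WT, 7028 to 21998 in Eμ-Myc, and 20368, 15008, 3598 and 1595 in the knockout. No marker of these 3 lists was at 0 in all libraries of a group. In bulk RNA, fewer cells of a type and less RNA per cell cannot be told apart.

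All 10 genes are protein-coding in GENCODE M21 on GRCm38 (mm10), and no exon of theirs overlaps an exon of another gene. Slc7a5 lies at chr8:121881150-121907694 on the minus strand and Slc7a6 at chr8:106168857-106198706 on the plus strand. Slc3a2 lies at chr19:8706882-8723369 on the minus strand, Slc1a5 at chr7:16781340-16798274 on the plus strand and Slc1a4 at chr11:20302180-20332713 on the minus strand. Slc38a1, at chr15:96571418-96642913, and Slc38a2, at chr15:96687392-96699730, are neighbours on the minus strand. Slc7a1 lies at chr5:148327410-148399904 on the minus strand, Slc43a1 at chr2:84838850-84863594 on the plus strand and Slc7a3 at chrX:101079210-101086020 on the minus strand.

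Promoter windows from 250 bases before to 50 bases after the start were given by RefSeq (GRCm38.p6) for 6 of the 10 genes, as 8 windows for Slc3a2, Slc1a4, Slc7a1, Slc7a6, Slc38a2 and Slc43a1. They were searched for the E-box CACGTG, the sequence to which MYC binds with MAX, which reads the same on both strands and is in 7.15% of all 32851 windows of this length. They were also searched on both strands for TGATGNAA, the core of the element through which ATF4 acts on amino acid genes (TTNCATCA on the other strand), which is in 3.97% of windows. The stretches below are shown because each holds the match found, with the motif in capitals, 5′ to 3′ on the strand of the gene. The E-box of Slc43a1 begins 64 bases before the RefSeq start (chr2:84840247-84840276, plus strand, inside an exon of the gene in GENCODE), and the ATF4 core of Slc1a4 spans the start (chr11:20332710-20332739, minus strand).
Slc43a1: agggtctccctcCACGTGgcagccgtggga
Slc1a4: agcctccagcgtgcctcctgcgTTGCATCA
Each motif was found in 1 of the 6 genes. A match describes letters and is not a binding site, and where no match was found only the absence of these letters from these windows is known.

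The comparison of Eμ-Myc with WT asks which genes differ in B cells that carry the Myc transgene. Of the 10 transporters, 9 passed the filter on low values and 7 of these rose in Eμ-Myc, by 1.33 to 4.61 times, with none falling. Slc1a4 is among the 7, but it entered the test only through the Eμ-Myc libraries, since its WT levels are all under the filter level of 1, so its count is no support. The 7 were Slc7a5, Slc1a4, Slc43a1, Slc7a6, Slc7a1, Slc1a5 and Slc3a2, and in each of them all 4 Eμ-Myc libraries were above all 4 WT libraries. Of all 12723 genes tested, 30.4% rose in Eμ-Myc and 28.7% did not overlap and were higher. The median log2 fold change of the 9 was 1.14, against -0.01 for all genes tested. The sodium-coupled transporters Slc38a1 and Slc38a2 did not pass the test, and Slc7a3 stayed at or under 1.11 in every library and was not tested. The comparison of the knockout with Eμ-Myc asks whether the loss of PRPS2 alters the same cells, and there no transporter passed the test.

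**Figure D1:**
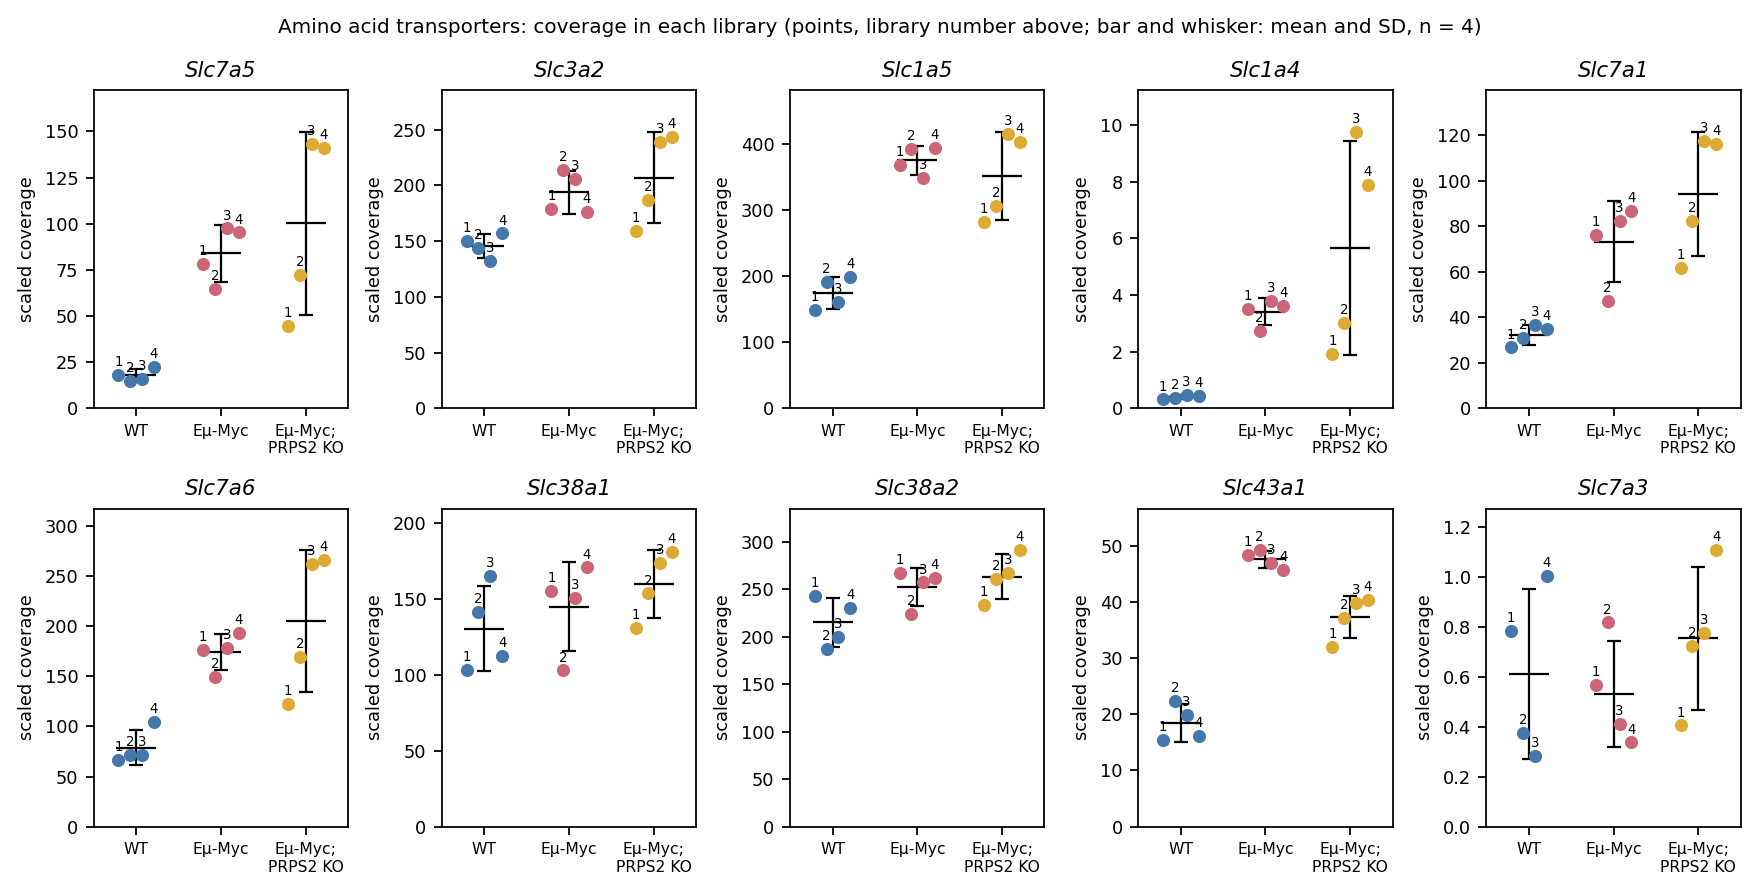
Scaled coverage of the 10 transporters in each library, 1 panel per gene, with the group on the horizontal axis, points for libraries with the library number above, and bar and whisker for mean and SD (n = 4). WT points lie below both other groups for Slc7a5, Slc3a2, Slc1a5, Slc1a4, Slc7a1, Slc7a6 and Slc43a1. On this scaling knockout libraries 3 and 4 lie above libraries 1 and 2 in all 10 panels.

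Among the heterodimeric exchangers, the light chain Slc7a5 (LAT1) imports leucine and other large neutral amino acids. Its scaled coverage was 18.1, 14.6, 16.1 and 22.3 in WT libraries 1 to 4. It was 78.2, 64.7, 97.5 and 95.3 in Eμ-Myc and 44.8, 72.1, 143 and 141 in the knockout. The lowest transgenic library of either genotype was thus above the highest WT library, and the knockout libraries lay on both sides of the Eμ-Myc range. In Eμ-Myc against WT the log2 fold change was 2.21 (SE 0.17, 95% interval 1.82 to 2.59), a limma adjusted p of 1.03e-05. Ordered from the highest rise to the deepest fall, it was gene 346 of the 12723.

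The heavy chain Slc3a2, which takes the light chains to the surface, was already well covered in WT, at 150.0, 144, 132 and 157. It was 179, 214, 206 and 176 in Eμ-Myc and 159, 187, 239 and 244 in the knockout. The WT libraries were below all others, yet the groups lay closer together than those of the light chains. The change in Eμ-Myc was 0.41 on the log2 scale (SE 0.10, interval 0.18 to 0.64, limma adjusted p = 0.00815), or 1.33 times. Slc7a6 (y+LAT2), the light chain that exchanges cationic against neutral amino acids, had 66.5, 71.7, 71.5 and 105 in WT. Its levels were 176, 149, 178 and 193 in Eμ-Myc and 122, 169.6, 262 and 266 in the knockout. WT library 4 stood above the other WT libraries but below every transgenic one. Slc7a6 rose in Eμ-Myc by 1.16 (SE 0.15, interval 0.82 to 1.5, limma adjusted p = 2.08e-04), and by 1.31 without WT library 4.

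If the values are per base, as they are read here, the light chains can be set against their heavy chain within a library. The changes of these ratios between groups do not rest on that reading. The ratio of Slc7a5 to Slc3a2 coverage was 0.102 to 0.142 in WT (median 0.121), 0.302 to 0.541 in Eμ-Myc (median 0.456) and 0.282 to 0.600 in the knockout (median 0.482). For Slc7a6 over Slc3a2 it was 0.443 to 0.668 in WT, 0.699 to 1.09 in Eμ-Myc and 0.771 to 1.10 in the knockout. Both ratios were higher in every transgenic library than in any WT library. The ratio of Slc7a5 to Slc7a6 moved from 0.204 to 0.273 in WT to 0.433 to 0.547 in Eμ-Myc and 0.366 to 0.548 in the knockout.

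Among the sodium-dependent carriers of small neutral amino acids, Slc1a5 (ASCT2) is a main route for glutamine in many proliferating cells. It had 149, 191, 160.3 and 199 in WT, 368, 393, 348 and 394 in Eμ-Myc, and 283, 307, 415 and 403 in the knockout. The WT libraries were again below all others, and knockout libraries 1 and 2 were below all Eμ-Myc libraries while 3 and 4 were above them. Slc1a5 rose in Eμ-Myc by 1.11 on the log2 scale (SE 0.12, interval 0.85 to 1.37, limma adjusted p = 5.08e-05).

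Its relative Slc1a4 (ASCT1), a carrier of alanine, serine and cysteine, was near the lower limit in WT, at 0.314, 0.375, 0.471 and 0.447. It was 3.50, 2.73, 3.80 and 3.60 in Eμ-Myc and 1.93, 3.01, 9.77 and 7.88 in the knockout. No transgenic library overlapped WT, and knockout libraries 3 and 4 were above the highest Eμ-Myc library. The log2 fold change in Eμ-Myc was 2.11 (SE 0.19, interval 1.68 to 2.54, limma adjusted p = 2.37e-05). With WT levels under the added constant of 0.5, this size depends on the constant: it was 2.81 with 0.1 and 1.17 with 2. Per base, Slc1a4 remained far below Slc1a5, at 0.00196 to 0.00294 of its coverage in WT, 0.00695 to 0.0109 in Eμ-Myc and 0.00682 to 0.0235 in the knockout.

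The sodium-coupled neutral amino acid transporters Slc38a1 (SNAT1) and Slc38a2 (SNAT2), which also carry glutamine, were well covered in every group. Slc38a1 had 103, 141, 165 and 112 in WT, 155, 103, 150.4 and 171 in Eμ-Myc, and 131, 154, 174 and 181 in the knockout. The 3 groups overlapped. The log2 difference of Eμ-Myc from WT was 0.15 (SE 0.19, interval -0.28 to 0.58, limma adjusted p = 0.526), and it was -0.03 when libraries were scaled by their total coverage. Slc38a2 had 243, 187, 199.9 and 230.1 in WT, 267, 224, 257 and 262 in Eμ-Myc, and 233, 261, 267 and 291 in the knockout. The groups overlapped here as well, with a log2 difference of 0.24 in Eμ-Myc (SE 0.11, interval -0.02 to 0.49, limma adjusted p = 0.103). The intervals of Slc38a1 and Slc38a2 thus end at or below 0.58, while those of Slc7a5, Slc43a1, Slc7a6, Slc7a1 and Slc1a5 begin at or above 0.70. The interval of Slc3a2, 0.18 to 0.64, overlaps both of the former. Slc1a4 is left out here, since it entered the test only through the Eμ-Myc libraries and its size depends on the added constant. Within each library Slc1a5 coverage was 0.614 to 1.02 of that of Slc38a2 in WT, 1.35 to 1.76 in Eμ-Myc and 1.18 to 1.55 in the knockout.

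Slc43a1 (LAT3), a carrier of branched-chain and other large neutral amino acids that needs no heavy chain, had the smallest spread of the 10 within Eμ-Myc relative to its mean. It was 15.4, 22.4, 20.0 and 16.1 in WT, 48.3, 49.2, 46.9 and 45.7 in Eμ-Myc, and 32.0, 37.1, 39.9 and 40.3 in the knockout. The 3 groups did not overlap, with the knockout between WT and Eμ-Myc. Slc43a1 rose in Eμ-Myc by 1.36 on the log2 scale (SE 0.13, interval 1.05 to 1.66, limma adjusted p = 3.98e-05).

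Of the carriers of arginine, lysine and ornithine, Slc7a1 (CAT1) had 26.8, 31.1, 36.5 and 34.9 in WT. It had 76.4, 47.2, 82.5 and 86.9 in Eμ-Myc and 61.6, 82.2, 118 and 116 in the knockout. Eμ-Myc library 2 was the low one of its group, and it was still above WT. The log2 fold change was 1.14 (SE 0.20, interval 0.70 to 1.58, limma adjusted p = 9.95e-04). Slc7a3 (CAT3), a cationic carrier known mainly from the nervous system, had 0.785, 0.375, 0.282 and 1.01 in WT, 0.567, 0.819, 0.411 and 0.338 in Eμ-Myc, and 0.406, 0.726, 0.777 and 1.11 in the knockout. These levels are a few of the steps of 0.1 in which coverage was deposited, and the groups overlapped.

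**Figure D2:**
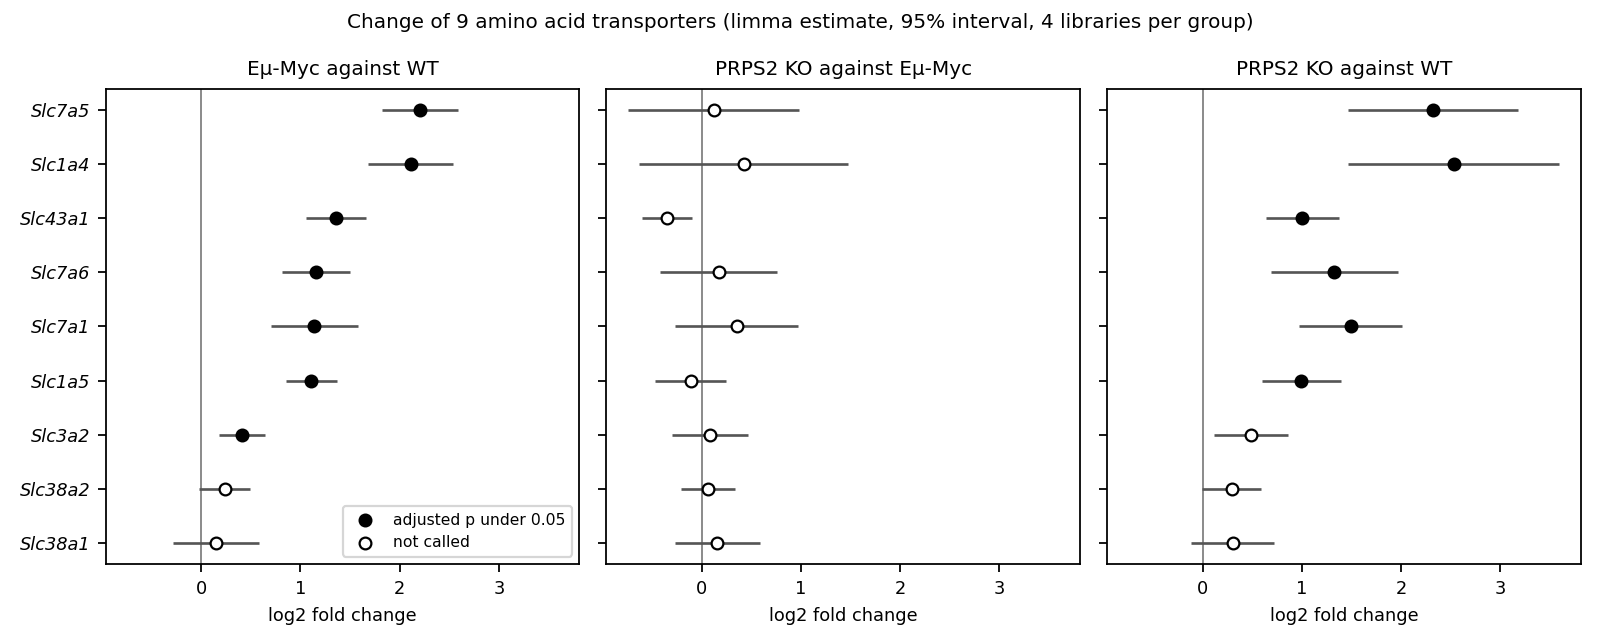
Log2 fold change of the 9 tested transporters with its 95% interval from limma (4 libraries per group), 1 panel per comparison. Against WT the Eμ-Myc intervals of 7 transporters lie above 0, those of Slc38a1 and Slc38a2 include 0, and in the knockout against Eμ-Myc only the interval of Slc43a1 leaves out 0.

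When libraries were scaled by total coverage, the median log2 change of all genes in Eμ-Myc against WT went from -0.01 to -0.19, and the share of called genes that were higher from 55.2% to 42.0%. Relative to that median the 7 transporters kept their direction, and Slc3a2 was closest to the threshold (limma adjusted p = 0.0494, in a range of 0.00745 to 0.0494 over its alternatives). The T-cell markers moved with this comparison: 15 of 15 fell in Eμ-Myc, with a median log2 change of -3.04. So did 9 of 9 NK-cell markers (median -2.13) and 3 of 7 platelet markers (median -1.05). Of 6 plasma-cell markers 2 rose and 1 fell (median 0.32), and of 12 B-cell markers 1 rose and 1 fell. The part of these cells in the transporter results was not tested.

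In the knockout against Eμ-Myc none of the 9 transporters tested passed limma's test over all 12551 genes (adjusted p = 1.00 for each), and 1 had an unadjusted p under 0.05. Of all genes 0.00797% passed, which is 1 gene, and 1.53% did not overlap between the groups. The median log2 difference of the 9 was 0.12, against -0.03 for all genes. The intervals were wide: -0.74 to 0.98 around 0.12 for Slc7a5, -0.63 to 1.48 around 0.42 for Slc1a4, -0.27 to 0.97 around 0.35 for Slc7a1 and -0.42 to 0.76 around 0.17 for Slc7a6. They were -0.31 to 0.46 around 0.08 for Slc3a2, -0.47 to 0.24 around -0.11 for Slc1a5, -0.27 to 0.58 around 0.15 for Slc38a1 and -0.22 to 0.33 around 0.06 for Slc38a2. A rise of up to 0.76 on the log2 scale lies inside the interval of each of the first 4, so one of that size is not shown to be absent.

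Slc43a1 was the transporter with the unadjusted p under 0.05 in the knockout. All 4 knockout libraries were below all 4 Eμ-Myc libraries, with means of 37.3 ± 3.81 and 47.6 ± 1.53 (SD, n = 4). The log2 difference was -0.35 (SE 0.11, interval -0.61 to -0.10), and it did not pass limma over all genes (adjusted p = 1.00). Of all genes 0.765% did not overlap and were lower in the knockout. The sum of 7 platelet markers was 154, 46.6, 41.0 and 44.7 in knockout libraries 1 to 4 and 80.7 to 171 in Eμ-Myc, with a median log2 difference of -0.85. Of the 7, 0 passed limma's test and 3 had an unadjusted p under 0.05. Knockout library 1, with the highest platelet sum of its group, had the lowest Slc43a1 (32.0). The medians of the other marker lists were also below 0: -0.78 for myeloid, -0.37 for NK, -0.33 for erythroid, -0.29 for plasma, -0.22 for B and -0.05 for T cells. The part of these cells was not tested.

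The knockout libraries differed among themselves more than those of the other groups for several transporters. In 10 of 10 genes libraries 3 and 4 were both above libraries 1 and 2 on the scaling used here. Of the 9909 genes whose mean level was 8 or more, which leaves out Slc1a4 and Slc7a3, 50.9% had this order and 38.4% the opposite one. The order depends on the scaling for Slc38a1, Slc38a2, Slc43a1 and Slc7a3, where library 3 is not above library 2 relative to total coverage. The deposited coverage of Slc38a2 was 251.4 in library 2 and 240.7 in library 3, and that of Slc7a3 was 0.7 in both. The highest knockout library was 5.06 times the lowest for Slc1a4, 3.20 times for Slc7a5 and 2.17 times for Slc7a6, but 1.26 times for Slc43a1 and 1.25 times for Slc38a2. Among the Eμ-Myc libraries the same ratio was 1.39 for Slc1a4, 1.51 for Slc7a5 and 1.29 for Slc7a6. Knockout libraries 3 and 4 were also those with the low T-cell, NK-cell and myeloid sums given above. The sum of 6 plasma-cell markers was 309 and 348 in knockout libraries 1 and 2 but 129 and 128 in 3 and 4, with 281 to 445 in the other groups. The part of these cells in the order was not tested.

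Without knockout libraries 1 and 2, which were left out for their T-cell and NK-cell sums after the data were seen, 3 transporters passed the test as higher than Eμ-Myc. On the scaling used here, the libraries removed are those with the lower level of all 10 transporters, so the direction is largely set by that choice and is no support. Slc1a4 was higher by 1.26 on the log2 scale (limma adjusted p = 0.00768), Slc7a5 by 0.78 (0.0183) and Slc7a6 by 0.60 (0.0143), where no other alternative gave an adjusted p under 0.803. In that setting 11.9% of all genes rose and 16.6% fell, and the 2 knockout libraries left are assumed to vary like the Eμ-Myc libraries. Slc1a5 then had a difference of 0.12 (adjusted p = 0.380) in place of -0.11, and Slc43a1 did not pass (adjusted p = 0.10).

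Myc itself had 270.5, 244, 226 and 346 in WT, 1822, 1559, 2302 and 1979 in Eμ-Myc, and 1099, 1718, 3017 and 3282 in the knockout. On the scaling used here, the knockout libraries with the most Myc were those with the most of each transporter. Relative to total coverage this did not hold for Slc38a1, Slc38a2, Slc43a1 and Slc7a3. The ratio of Slc7a5 to Myc was 0.0600 to 0.0712 in WT, 0.0415 to 0.0482 in Eμ-Myc and 0.0408 to 0.0475 in the knockout. Slc7a5 and Myc therefore differed by almost the same factor across the 8 transgenic libraries, and the ratio was higher in every WT library.

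**Figure D3:**
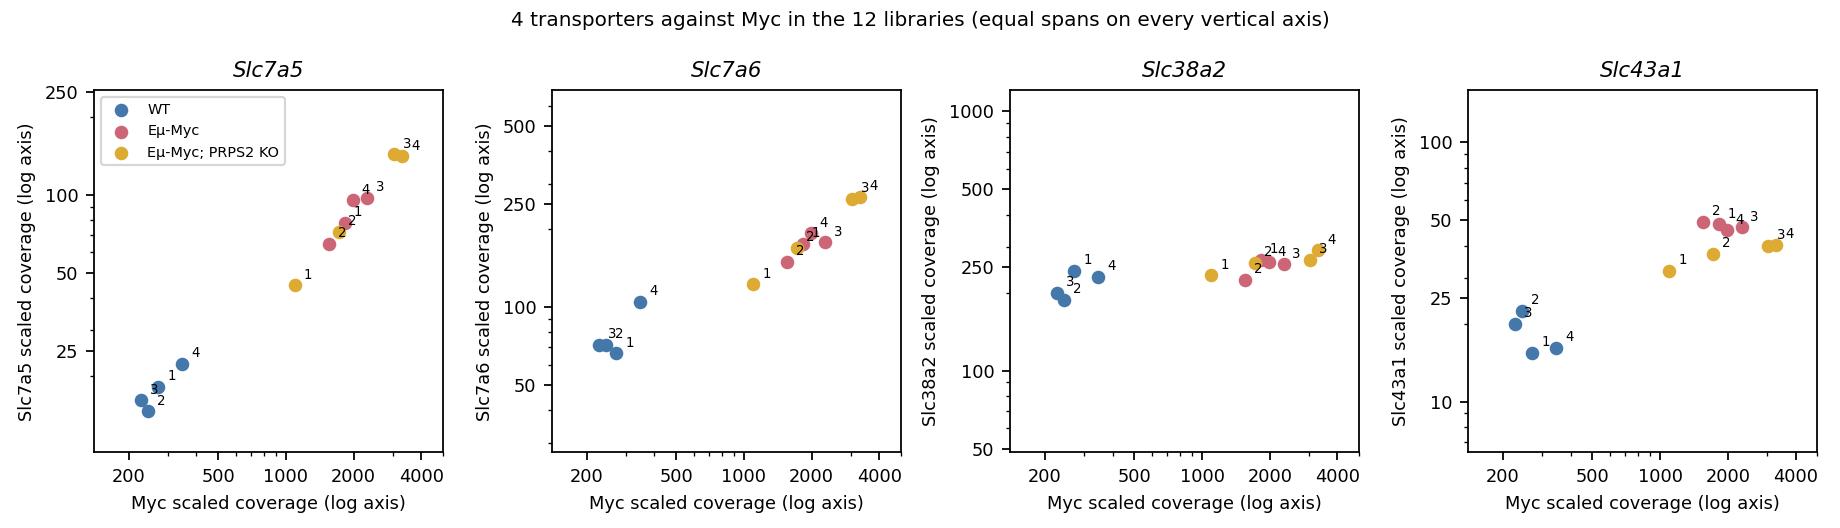
Scaled coverage of 4 transporters against that of Myc in the 12 libraries, on log axes of equal span, coloured by group. In the 8 transgenic libraries Slc7a5 goes up with Myc at a ratio of 0.0408 to 0.0482, while the knockout libraries of Slc43a1 stay within 1.26 times of each other.

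The comparison of the knockout with WT shares its WT libraries with the first comparison and its knockout libraries with the second. In it 6 of 9 transporters rose and none fell, where 19.7% of the 12692 genes tested rose. Slc1a4, one of the 6, entered this test only through the knockout libraries, where it is high. The median log2 difference was 1.01, against -0.01 for all genes. Of the markers of other cells, 6 of 7 for platelets fell here (median -1.94), and their part was not tested. The T-cell and NK-cell markers had medians of -3.12 and -2.51, but 0 of 15 and 0 of 9 passed limma's test (9 and 3 had an unadjusted p under 0.05), and knockout libraries 1 and 2 lay inside the WT range of both sums. The called transporters were Slc1a4 at 2.53 (SE 0.46, limma adjusted p = 0.0133), Slc7a5 at 2.32 (SE 0.37, 0.0106), Slc7a1 at 1.49 (SE 0.23, 0.0100), Slc7a6 at 1.33 (SE 0.28, 0.0191), Slc43a1 at 1.01 (SE 0.16, 0.0106) and Slc1a5 at 1.00 (SE 0.17, 0.0115). For Slc3a2 all 4 knockout libraries were above WT, as was so of 22.2% of all genes, and its difference of 0.49 did not pass (SE 0.16, limma adjusted p = 0.0531). It passed without knockout library 1 (0.0121), with a filter of 10 in every library (0.0460) and in one fit of all 12 libraries (0.0209), and over the alternatives that kept at least 3 knockout libraries its adjusted p ran from 0.0121 to 0.142. Slc38a1 at 0.30 and Slc38a2 at 0.29 did not pass either (limma adjusted p = 0.198 and 0.104). The call of Slc7a6 was lost without WT library 1, 2 or 3 or knockout library 3 or 4 (limma adjusted p 0.0515 to 0.0614).

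The order of the transporters by level changed between WT and the transgenic groups. In WT it was Slc38a2 at 215 ± 25.9, Slc1a5 at 175 ± 23.9, Slc3a2 at 146 ± 10.5, Slc38a1 at 130.4 ± 28.1 and Slc7a6 at 78.6 ± 17.6 (SD, n = 4). Each of these overlapped the next one in its libraries. Slc7a1 at 32.3 ± 4.35 followed with no overlap, then Slc43a1 at 18.5 ± 3.31 and Slc7a5 at 17.8 ± 3.31, which overlapped, and then Slc7a3 and Slc1a4, both under 1. In Eμ-Myc Slc1a5 came first at 376 ± 22.0, above Slc38a2 at 252 ± 19.7 with no overlap. Slc3a2 at 194 ± 19.0, Slc7a6 at 174 ± 18.1 and Slc38a1 at 145 ± 29.2 overlapped in turn, as did Slc7a5 at 83.9 ± 15.4, Slc7a1 at 73.2 ± 17.9 and Slc43a1 at 47.6 ± 1.53. Slc1a4 at 3.41 ± 0.470 stood apart from Slc7a3 below it. The knockout had the same order of means as Eμ-Myc, and there neighbours from Slc1a5 down to Slc7a1 all overlapped.

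By a rule of likeness, the genes closest to Slc7a5 over the 12 libraries were sought among 9651 genes whose mean level was 8 or more, leaving out symbols of the Gm or Rik type. The measure was the root mean square difference of centred log2 levels. The 5 closest were Pus7 at 0.136, Mcm7 at 0.154, Bard1 at 0.163, Ndc1 at 0.167 and Parpbp at 0.171. Mcm7 is a subunit of the replicative helicase, Bard1 the partner of BRCA1 in homologous repair, Ndc1 a membrane protein of the nuclear pore, Pus7 a pseudouridine synthase and Parpbp a protein that binds PARP1. The other transporters were farther away: Slc7a6 was gene 623 at 0.514, Slc7a1 gene 656 at 0.523, Slc1a5 gene 1230, Slc43a1 gene 1360, Slc3a2 gene 2897, Slc38a2 gene 3706 and Slc38a1 gene 3970. By this measure the heavy chain was farther from Slc7a5 than Slc7a6, Slc7a1, Slc1a5 and Slc43a1 were. The measure is not divided by a gene's spread, so it largely follows the size of the changes already given. In Eμ-Myc against WT the log2 change was 1.93 to 2.45 for the 5 closest genes, 2.21 for Slc7a5 and 0.41 for Slc3a2. Slc1a4 and Slc7a3 were below the level the rule needs.

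Beyond the 10, a list of 33 other amino acid transporters of the cell surface was mostly at low levels in these cells: 21 did not pass the filter on low values, and 6 of the 21 were at 0 in all libraries. Of the 12 tested in Eμ-Myc against WT, 1 rose and 2 fell, where 30.4% of all genes rose and 24.7% fell. Their median log2 change was 0.22. Slc38a5 (SNAT5), a glutamine and glycine carrier of the Slc38 family, rose from a mean of 1.61 to 3.71 (log2 change 1.07, SE 0.41, limma adjusted p = 0.0490), with overlapping groups. This call was lost with median-of-ratios or total coverage scaling, with a constant of 0.1, with no filter, in one fit of all 12 libraries, and without WT library 2, 3 or 4 or Eμ-Myc library 1, 3 or 4. Slc6a19, a neutral amino acid carrier best known from gut and kidney, fell from 4.05 to 0.150 (log2 change -2.56, SE 0.43, limma adjusted p = 8.55e-04), and it passed the filter only through WT, where it is high. Slc36a3, of the proton-coupled family, fell from 1.81 to 0.675 (log2 change -1.0, SE 0.33, limma adjusted p = 0.0283), with overlapping groups. The call of Slc36a3 was lost without WT library 1 or 3 or Eμ-Myc library 3 or 4 (limma adjusted p 0.0623 to 0.0791), and that of Slc6a19 was kept in every leave-out of 1 library. All 3 were at low levels, where the part of other cell types was not tested.

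Of 26 genes listed as organelle amino acid carriers, mostly of mitochondria and lysosomes, 22 were tested in Eμ-Myc against WT. In this list 6 rose and 12 fell, where 30.4% of all genes rose and 24.7% fell, and the median log2 change was -0.36. With total coverage scaling 4 rose and 14 fell, where 3057 of all 12699 genes rose and 4227 fell. Whether the list differs from the 10 transporters was not tested. Sfxn1, the mitochondrial serine carrier, rose from 47.2 to 162 (log2 change 1.77, SE 0.10, limma adjusted p = 2.76e-06). Slc25a13, the aspartate and glutamate exchanger also called citrin, rose by 1.16 (SE 0.16, limma adjusted p = 2.30e-04). Slc25a15, an ornithine carrier, rose by 1.07 (SE 0.15, limma adjusted p = 2.59e-04). The second aspartate and glutamate exchanger, Slc25a12 (aralar), went the other way, at -0.52 (SE 0.10, limma adjusted p = 0.00222). Sfxn3, a relative of Sfxn1, fell from 260.0 to 133 (log2 change -0.95, SE 0.18, limma adjusted p = 0.00153). Ctns, the lysosomal cystine exporter, changed by -0.61 (SE 0.14, limma adjusted p = 0.00439).

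Of 37 genes that relay amino acid supply to mTORC1, 35 were in the files and all 35 were tested. In Eμ-Myc against WT 11 rose and 6 fell, where 30.4% of all genes rose and 24.7% fell, so the share that rose was about that of all genes. The median log2 change was 0.15. With total coverage scaling 8 rose and 10 fell, where of all 12699 genes tested 3057 rose and 4227 fell, so the list went with all genes. Lars, the leucyl-tRNA synthetase, rose by 0.87 (SE 0.09, limma adjusted p = 6.33e-05), Sec13, a subunit of the GATOR2 complex, by 0.72 (SE 0.10, limma adjusted p = 2.82e-04) and Tbc1d7, a subunit of the TSC complex, by 0.69 (SE 0.10, limma adjusted p = 4.35e-04). Sesn1, a sestrin that restrains mTORC1 when leucine is short, fell from 148 to 75.7 (log2 change -0.95, SE 0.15, limma adjusted p = 5.83e-04). Rraga, a Rag GTPase, changed by -0.59 (SE 0.11, limma adjusted p = 0.00122) and Flcn, folliculin, which acts on the Rag GTPases, by -0.46 (SE 0.10, limma adjusted p = 0.00400).

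**Figure D4:**
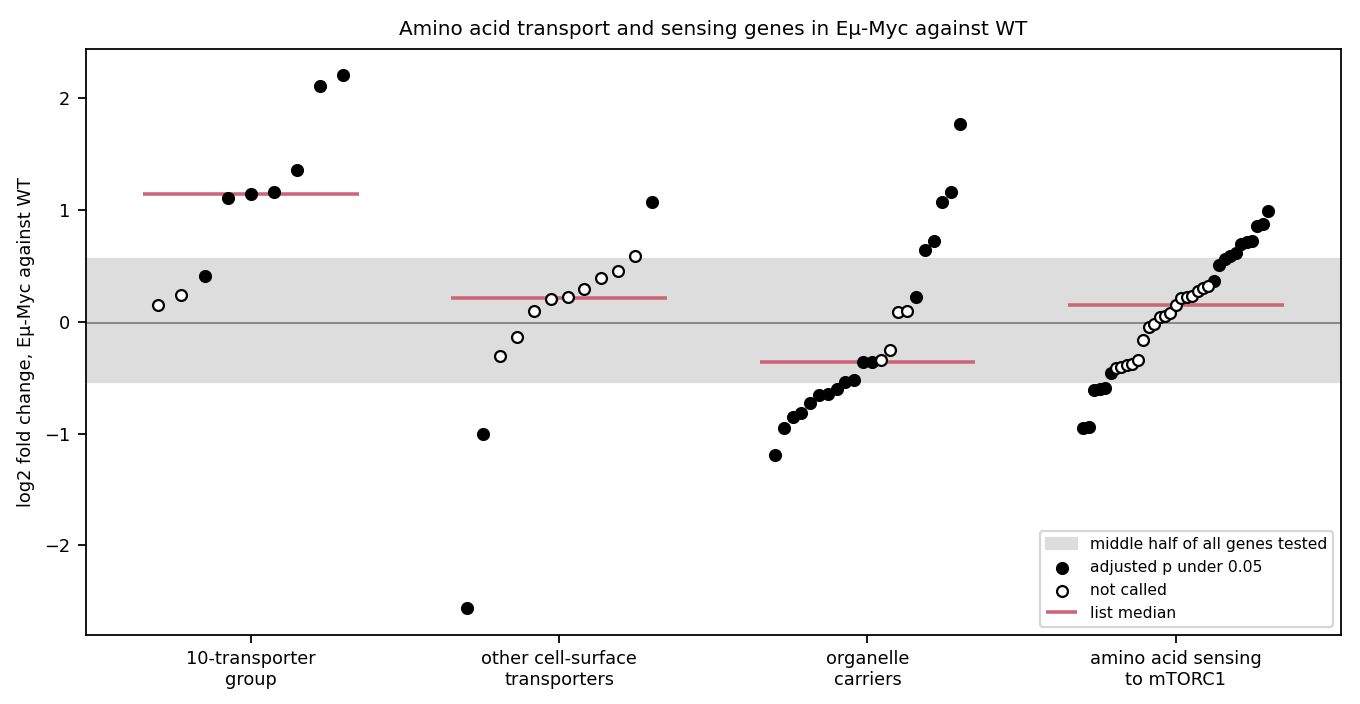
Log2 fold change in Eμ-Myc against WT of each tested gene in the 4 lists of amino acid transport and sensing genes, 1 point per gene. The transporters have a median of 1.14, the other cell-surface transporters 0.22, the organelle carriers -0.36 and the sensing genes 0.15.

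In the knockout against Eμ-Myc no gene of these 3 further lists passed limma's test, and none had an unadjusted p under 0.05, of 10 other cell-surface transporters, 22 organelle carriers and 35 sensing genes tested. Their median log2 differences were -0.06, -0.01 and 0.02. In the knockout against WT 5 organelle carriers rose and 2 fell, and 5 sensing genes rose and 4 fell, where 19.7% of all genes rose and 9.6% fell. None of the 12 other cell-surface transporters passed limma's test there, and 1 had an unadjusted p under 0.05. These counts against WT depended on single libraries, as did those of all genes (2497 higher and 1219 lower with all libraries). Leaving out WT library 1, 2, 3 or 4 or knockout library 3 or 4 left 1 or 2 organelle carriers and 0 to 2 sensing genes, and of all genes 560 to 1002 higher and 36 to 235 lower. Leaving out knockout library 1 gave 14 and 17, with 3 other cell-surface transporters, and 3776 higher and 2962 lower of all genes. Without knockout library 2 the counts were 11 and 7, and 2556 higher and 1691 lower of all genes. With the replicate number as a block, 1 organelle carrier and 4 sensing genes passed, and of all genes 1431 higher and 432 lower.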

How the data were processed

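Per the labels' protocols, splenic B lymphocytes were lysed in TRIzol, RNA was cleaned with a PureLink kit, and a directional NEBNext kit was used for the libraries. The authors deposited 1 table per library of gene coverage, a signal in steps of 0.1 that is never negative, and 91.6% of its nonzero values had a decimal part. Per the submitters' processing notes, mm10, DESeq and R 4.3.3 were used, with no role given. The aligner, the counting step, its use of strand and the annotation are not given in the sources used here. Since the read depth is unknown, no counting interval is given, and errors come from the spread between libraries.

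Of the 24982 symbols 6705 were at 0 in all 12 libraries, and no libraries held identical values. Each library was scaled by an unweighted trimmed mean of log ratios (30% of ratios and 5% of levels trimmed at each end). A gene entered a test if 4 or more of the 8 libraries reached a scaled coverage of 1. Tests used limma 3.58.1 in R 4.3.3 (trended prior, robust empirical Bayes) on log2(scaled coverage + 0.5). Log2 fold changes are on that scale and understate those of low genes. Tests were two-sided, with Benjamini-Hochberg adjustment over all genes of each of 3 comparisons, and a gene was called at an adjusted p under 0.05. Figures used Python 3.11.15, pandas 2.3.3, numpy 2.4.6 and matplotlib 3.10.9. The method was also run on simulated data with independent noise for each gene and library. Those data do not hold the split of knockout libraries 1 and 2 from 3 and 4, so they say nothing on the knockout tests in that respect.

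The members and the gene lists were chosen with earlier results of these data known. Named were every member, the 3 called genes with the smallest adjusted p in each direction from each further list in Eμ-Myc against WT, and the 5 genes most like Slc7a5, leaving out symbols of the Gm or Rik type.

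The labels number replicates 1 to 4 in each group. Each library's deviation from its group mean was correlated, over genes, with that of the library of the same number. This gave r of 0.638, 0.187, 0.243 and 0.596 between the knockout and Eμ-Myc, all over 0.1. The numbers may be pairs there, which the labels do not say. The main tests did not use them as pairs, and the replicate block was only an alternative. The 4 r are not independent, since deviations are taken from the mean of the same libraries. NK-cell sums were higher in libraries 1 and 2 than in 3 and 4 of both groups (252, 297, 136 and 111 in Eμ-Myc). Their part in these r was not tested. Between Eμ-Myc and WT r was 0.225, -0.10, 0.251 and 0.128, and between the knockout and WT 0.391, -0.41, 0.136 and -0.06, so those share only a number. Alternatives were other scalings (total coverage, median of ratios), a filter of 10 in every library or none, constants of 0.1 and 2, a replicate block, one fit of all 12 libraries, and leaving out each library.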

Additional observations from a re-analysis of the deposited data

Results flagged for a closer look

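In WT, Slc7a6 in library 4 stood apart from the other 3 libraries: its gap to the nearest of them, divided by the range of the group, was 0.863, above the critical value of Dixon's test at 95% for 4 samples. Of 30 groups of 4 libraries looked at this way it was the 1 that passed, and chance alone gives about 1 in 20. WT library 4 also had the highest summed T-cell (5224), NK-cell (1760) and erythroid (856) markers of the series and the lowest platelet sum in WT (98.7, against 279 to 432). The part of these cells in the Slc7a6 level was not tested. Without this library the log2 change of Slc7a6 in Eμ-Myc against WT was 1.31 in place of 1.16.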

How the results depend on the processing

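In Eμ-Myc against WT the count of 7 higher transporters was reached under every alternative run, leave-outs included, except a filter of 10 in every library, under which Slc1a4 is not tested and 6 passed. The counts of the organelle and sensing lists stayed between 12 and 19, but with total coverage scaling their splits went from 6 higher and 12 lower to 4 and 14, and from 11 and 6 to 8 and 10, where all genes went from 3873 and 3143 to 3057 and 4227. The count of other cell-surface transporters was 3, became 0 with a filter of 10 in every library and ranged from 1 to 4 over leave-outs. With total coverage scaling Slc38a1 was -0.0319, Slc38a2 was 0.0528 in place of 0.24, and Slc3a2 was 0.225 in place of 0.41. In the knockout against Eμ-Myc all counts were 0 under every alternative except without knockout libraries 1 and 2, an alternative chosen after seeing the data. In that setting 3 transporters (all higher) and 3 other cell-surface transporters (all lower) passed. So did 7 organelle carriers (3 higher, 4 lower) and 4 sensing genes (3 higher, 1 lower), where 11.9% of all genes rose and 16.6% fell. Slc1a5 turned to 0.12 there. Over single leave-outs the difference turned for Slc7a5 (-0.105 without knockout library 3 and -0.0970 without library 4, in a range up to 0.45), Slc3a2 (-0.00716 without knockout library 4, up to 0.20) and Slc38a1 (-0.000628 without Eμ-Myc library 2, up to 0.25). It kept its sign but ranged from 0.09 to 0.79 for Slc1a4, 0.16 to 0.54 for Slc7a1 and 0.02 to 0.39 for Slc7a6. The range was -0.20 to -0.01 for Slc1a5 and 0.0019 to 0.11 for Slc38a2.

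In the knockout against WT the count of transporters was 5 to 7 over leave-outs of 1 library. Other cell-surface transporters (0) became 1 in the fit of all 12 libraries and 0 to 3 over leave-outs, organelle carriers (7) 13 and 1 to 14, and sensing genes (9) 15 and 0 to 17, where all genes went from 2497 higher and 1219 lower to 3445 and 2530 in the fit of all 12. Without knockout libraries 1 and 2 these were 7, 20 and 23, and 8 transporters passed, where 4528 of all 12692 genes were higher and 4313 lower. The replicate block gave 1 organelle carrier and 4 sensing genes here, where the libraries share only a number. It left the counts of transporters at 7 and 6 against WT, and at 0 in the knockout against Eμ-Myc, where the numbers may be pairs. Unknown depth and steps of 0.1 limit Slc1a4 in WT and Slc7a3 throughout. The cause of these changes was not tested.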
